A study of Homo sapiens with 6 samples.

Results

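Genes of blood coagulation, fibrinolysis and complement were examined in HepG2, an established human line of liver cancer, labelled as hepatocellular carcinoma. They were 48 genes chosen by symbol, in 4 subgroups of 14 clotting, 8 inhibitor, 8 fibrinolysis and 18 complement genes, and 47 of them were represented on the array, by 76 of its 47323 probes. CD46, a membrane regulator of complement, was not analysed here. A probe was kept when 3 or more of the 6 arrays gave it a detection p under 0.05, which means a signal above background. This held for 53 of the 76 probes, and these stood for 40 genes among the 11542 tested in the whole series. The treated cells received the kinase inhibitor sorafenib for 24 h at a dose labelled 3 mM, a unit that the files do not allow to be checked, and the control cells received its solvent DMSO alone for the same time. Each group had 3 Illumina BeadChip arrays, all from the one cell line. Nothing in the labels tells whether replicates came from separate cultures, so a p-value reflects only the spread among these arrays, which may be technical. The comparison asks which of these transcripts differed with the drug.

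The liver makes most proteins of the clotting and complement systems and secretes them into plasma. In coagulation, tissue factor with factor VII starts a chain of proteases that ends in thrombin, which turns fibrinogen into fibrin, and inhibitors such as antithrombin and tissue factor pathway inhibitor restrain it. Plasmin dissolves fibrin in turn, and complement is a separate protease system that marks and lyses foreign cells.

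Of the 40 genes tested, 16 fell and 5 rose with sorafenib (limma, adjusted p under 0.05), which is 40% and 12.5%. Over all 11542 genes the same rule called 14.3% lower and 11% higher, so the share lower stood above that of all genes and the share higher stood near it. The list was chosen with earlier results of these data known, so this comparison only describes the list and was not tested. The median log2 difference was -0.34 over these 40 genes and 0.00073 over all genes tested. The sorafenib arrays all lay below the control arrays for 19 of the 40 genes and above them for 6, against 23.3% and 21.6% of all genes. KNG1 was detected on control arrays alone and C6 on 4 of 6 arrays, and since they passed the filter mainly through the group in which they were high, their falls follow in part from that filter. Among the 38 genes detected on all 6 arrays, 14 fell and 5 rose. The share of all genes under that stricter rule was not computed, so these counts have no matching reference. Counted by probe, 18 of the 53 fell and 8 rose, against 9.45% and 7.27% of the 20120 detected probes of the whole array. That count repeats genes with several called probes, TFPI and PLAUR among the rises and FGA and FGG among the falls. The 7 genes on the array whose probes did not pass were F9, F13B, KLKB1, PLG, HRG, C1R and MASP1. Just outside the limit, 1 probe of C1R and the dimmer probe of F11 were each detected on 2 control arrays and on no sorafenib array, and the dimmer probe of FGB on 1 sorafenib array. Because RNA was taken from whole cultures, fewer cells making a transcript and less of it per cell cannot be told apart.

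**Figure D1:**
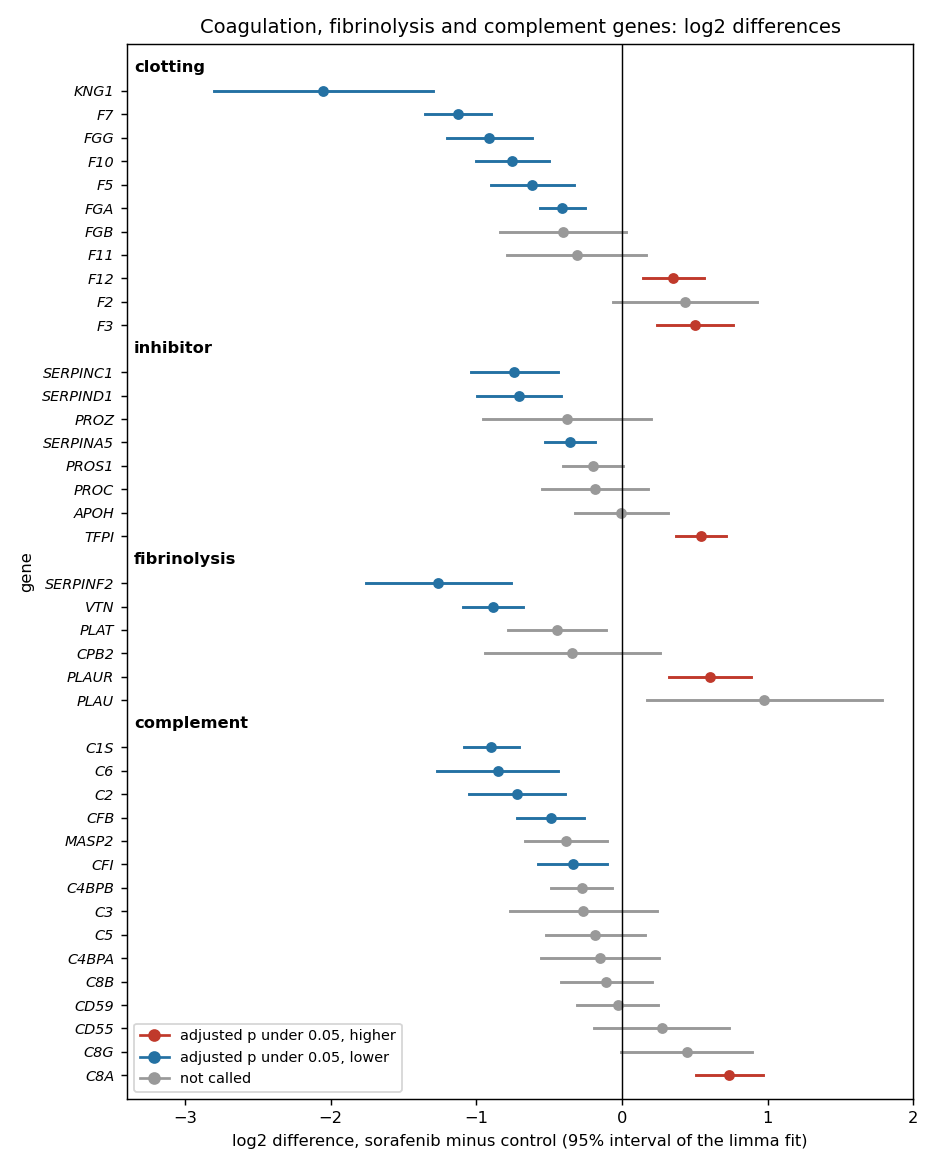
Log2 differences (sorafenib minus control, horizontal axis) of the 40 genes tested, by subgroup, with 95% intervals of the limma fit. Blue marks the 16 genes that fell, red the 5 that rose and grey the 19 that did not pass the threshold. The value of KNG1 includes sorafenib arrays below the detection limit.

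The arrays had mean intensities of 739 to 1050 and 19440 to 20138 detected probes. Of 12 hepatic markers, 10 were on the array and all of these passed the filter, among them ALB and AFP. Of these 10, 3 fell and 2 rose, against 14.3% and 11% of all genes tested. Those that fell were TF (-0.61), APOA1 (-0.47) and FOXA2 (-0.42), and those that rose were APOB (0.53) and AFP (0.28). The other 5 were not called, among them ALB (-0.01). None of 6 endothelial markers passed, and VWF, KDR and CDH5 were detected on no array. Of 6 immune markers 2 passed, CD14 and CD68, and PTPRC was detected on no array. Of 6 stellate cell markers, ACTA2 and PDGFRB passed, while COL1A1, COL3A1 and LUM were detected on no array. The summed normalized intensity of the stellate list was 8144 to 8239 on sorafenib arrays and 11687 to 13492 on control arrays. That sum was carried by ACTA2, which fell by 0.65 ± 0.08 (SE, n = 3; limma, adjusted p = 0.00299). PDGFRB was detected on the 3 sorafenib arrays and on no control array, and was higher by 1.16 ± 0.13 (limma, adjusted p = 0.00205). It passed the filter only through the sorafenib arrays, so its rise follows in part from that filter. The size of that rise rests on control values below detection. The part of these markers in the results was not tested.

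Sequence upstream of the start was shown for the fibrinogen genes, which lie next to each other on chromosome 4, for KNG1 and F7, which fell most among genes with an entry, and for TFPI, which rose. Each is the 250 bases before the start of transcription in RefSeq (GRCh38.p14), 5′ to 3′ on the strand of the gene, and for FGB it is that of the first listed of 2 starts. Capitals mark matches on either strand to GTTAATNA, a form of the motif of the hepatocyte factor HNF1, to TTGCNNAA, a C/EBP motif, and to TGTTTNC, a FOXA motif.
FGB promoter, chr4:154562730-154562979, plus strand: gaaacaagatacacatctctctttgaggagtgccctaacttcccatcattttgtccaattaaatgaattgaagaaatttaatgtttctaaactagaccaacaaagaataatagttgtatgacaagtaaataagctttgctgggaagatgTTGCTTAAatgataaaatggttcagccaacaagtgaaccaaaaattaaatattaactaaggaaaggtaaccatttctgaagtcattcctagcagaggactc
FGA promoter, chr4:154590743-154590992, minus strand: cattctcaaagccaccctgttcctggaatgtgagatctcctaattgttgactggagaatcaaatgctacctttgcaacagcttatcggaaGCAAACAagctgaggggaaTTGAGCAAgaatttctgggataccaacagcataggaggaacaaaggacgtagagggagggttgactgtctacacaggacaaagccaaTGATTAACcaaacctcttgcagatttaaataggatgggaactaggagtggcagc
FGG promoter, chr4:154612657-154612906, minus strand: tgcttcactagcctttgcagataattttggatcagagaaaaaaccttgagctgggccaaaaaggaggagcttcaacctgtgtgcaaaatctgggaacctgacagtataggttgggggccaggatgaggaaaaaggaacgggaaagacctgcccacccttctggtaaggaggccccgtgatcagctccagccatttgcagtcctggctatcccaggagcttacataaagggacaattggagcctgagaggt
KNG1 promoter, chr3:186717109-186717358, plus strand: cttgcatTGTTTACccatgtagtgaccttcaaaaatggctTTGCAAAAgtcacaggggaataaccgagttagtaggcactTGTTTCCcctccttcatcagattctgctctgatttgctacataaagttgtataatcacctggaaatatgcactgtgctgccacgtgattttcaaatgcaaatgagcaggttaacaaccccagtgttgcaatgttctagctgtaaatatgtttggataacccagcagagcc
F7 promoter, chr13:113105541-113105790, plus strand: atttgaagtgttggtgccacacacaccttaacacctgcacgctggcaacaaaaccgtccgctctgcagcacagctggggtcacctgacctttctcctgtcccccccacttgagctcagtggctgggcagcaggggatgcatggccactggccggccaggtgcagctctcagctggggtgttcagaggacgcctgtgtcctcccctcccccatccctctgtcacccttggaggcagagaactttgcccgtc
TFPI promoter, chr2:187554436-187554685, minus strand: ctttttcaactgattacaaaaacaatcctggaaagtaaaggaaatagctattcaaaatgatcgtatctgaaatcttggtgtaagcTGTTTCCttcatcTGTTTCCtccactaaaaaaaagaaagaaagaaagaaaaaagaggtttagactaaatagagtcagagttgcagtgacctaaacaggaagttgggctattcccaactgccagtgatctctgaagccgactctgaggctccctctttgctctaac
No marked matches overlapped. FGA held 1 match to each of the 3 motifs, FGB held a C/EBP match, KNG1 held a C/EBP and 2 FOXA matches and TFPI held 2 FOXA matches, while FGG and F7 held none in these windows. Over the 27305 genes with an entry, the share with a match was 2.2% for GTTAATNA, 9.13% for TTGCNNAA and 15.6% for TGTTTNC. An entry existed for 42 of the 48 genes. Among the genes with an entry, the C/EBP motif occurred in 4 of 13 that fell (FGA, KNG1, VTN and C6), 1 of 5 that rose (PLAUR) and 2 of 16 that passed neither way (FGB and CPB2). The FOXA motif occurred in 5, 1 and 4 of them. The HNF1 motif, shortened after matches to a longer form had been seen, occurred in 1, 0 and 1 of them (FGA and C4BPA). Other motifs searched but not marked were CAAAGTCCA, an HNF4 motif, held by 0.293% of all entries and by PROZ alone of these genes, the TATA box TATAAA, held by 11.1% and by CFB and F3, and the GC box GGGCGG, held by 42.3% and by F10, SERPINA5, C2, F3, PROS1 and CD55. These are matches of letters, not sites of binding. KNG1 and C6, counted among the genes that fell, passed the detection filter mainly through control arrays, and no difference in motif share was tested.

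Fibrinogen is a plasma protein of paired alpha, beta and gamma chains, and 2 of its 3 genes fell. Of all 11 clotting genes tested, 6 fell and 2 rose, against 14.3% and 11% of all genes tested. KNG1 is among the 6 and passed the filter through control arrays alone. With median scaling 0 clotting genes rose, and leaving out 1 array gave 0 to 2. FGG, the gamma chain, had log2 intensities of 10.26, 10.54 and 10.71 on sorafenib arrays, against 11.42, 11.34 and 11.48 on control arrays. The groups did not overlap, and FGG fell by 0.91 ± 0.12 in log2 (SE, 3 arrays in each group; adjusted p = 0.00397 from the limma fit). Its other detected probe differed by only -0.37 ± 0.09, and FGG differed by -0.64 with the mean of its probes. FGA, the alpha chain, had 9.94, 10.01 and 9.94 with sorafenib and 10.37, 10.36 and 10.39 in control cells. Its groups were narrow and apart, and it fell by 0.41 ± 0.07 (limma, adjusted p = 0.00715). The other detected probes of FGA differed by -0.45, -0.46 and -0.32. The last of these did not pass in the fit over all probes (limma, adjusted p = 0.263). FGB, the beta chain, had 6.02, 6.34 and 6.59 with sorafenib and 6.51, 6.65 and 7.02 in control cells, so the groups overlapped. Its difference of -0.41 ± 0.18 did not pass (adjusted p = 0.148, 95% interval -0.84 to 0.03). Within each replicate number FGB was lower with sorafenib, by -0.49, -0.31 and -0.43, and it passed once the number entered the fit as a block (limma, adjusted p = 0.0148). FGA missed the threshold with arrays scaled to a common median (limma, adjusted p = 0.126).

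The factors of the starting and common pathways moved in both directions. F7, factor VII, had log2 intensities of 8.29, 8.40 and 8.39 on sorafenib arrays and 9.31, 9.56 and 9.59 on control arrays. It fell by 1.13 ± 0.10 (SE, n = 3; limma, adjusted p = 0.000946), to 0.458 of the control level. F10, the factor X gene beside F7 on chromosome 13, had 9.74, 9.88 and 9.93 with sorafenib and 10.47, 10.56 and 10.78 in control cells, and it fell by 0.75 ± 0.10 (adjusted p = 0.00433). F5, the cofactor of factor X, fell by 0.61 ± 0.12 (adjusted p = 0.0127). F2, which encodes prothrombin, had 7.60, 7.53 and 8.29 with sorafenib and 7.37, 7.21 and 7.52 in control cells. The sorafenib arrays lay just above the control arrays, and the difference of 0.43 ± 0.21 did not pass (adjusted p = 0.173, 95% interval -0.06 to 0.93). F3, tissue factor, the membrane receptor of factor VII, had 6.76, 6.64 and 6.46 with sorafenib and 6.27, 6.07 and 6.02 in control cells. The groups did not overlap, and F3 rose by 0.50 ± 0.11 (adjusted p = 0.0185), the opposite direction to its partner F7. F3 missed the threshold with median scaling and with any of sorafenib replicates 1 and 2 and control replicates 2 and 3 left out (limma, adjusted p = 0.0611, 0.0543, 0.0616, 0.0642 and 0.0567), and its difference was 0.21 without background correction. The dimmer detected probe of F7 differed by -0.01, and F7 differed by -0.57 with the mean of its probes.

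The contact factors start clotting on charged surfaces, and KNG1 encodes kininogen, the carrier of prekallikrein and the source of bradykinin. KNG1 had deposited intensities of 116, 127 and 131 with sorafenib, none above background, against 199, 248 and 265 in control cells, each detected. After background correction its log2 values were 4.87, 5.04 and 5.24 with sorafenib and 6.42, 7.12 and 7.77 in control cells. The limma fit of these values gave a difference of -2.05 ± 0.32 (adjusted p = 0.00611). On this background-corrected scale KNG1 was at least 2.70-fold lower with sorafenib, set against the lowest detected value on each sorafenib array. No test was run of that bound. That fold holds on this scale alone, since the log2 difference was -0.91 without background correction. F12, factor XII, the protease of the contact system, had 8.90, 9.11 and 8.89 with sorafenib and 8.59, 8.68 and 8.58 in control cells, and rose by 0.35 ± 0.09 (adjusted p = 0.0278). F11, the factor XI gene, differed by -0.31 ± 0.20 (adjusted p = 0.294), and passed downward without sorafenib replicate 3 (limma, adjusted p = 0.0432, -0.53). F12 missed the threshold with median scaling (limma, adjusted p = 0.194) and in 5 of the 6 fits that left out an array, with adjusted p of 0.0527 and 0.0827 without sorafenib replicates 1 and 2 and 0.0772, 0.0599 and 0.0757 without control replicates 1, 2 and 3.

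**Figure D2:**
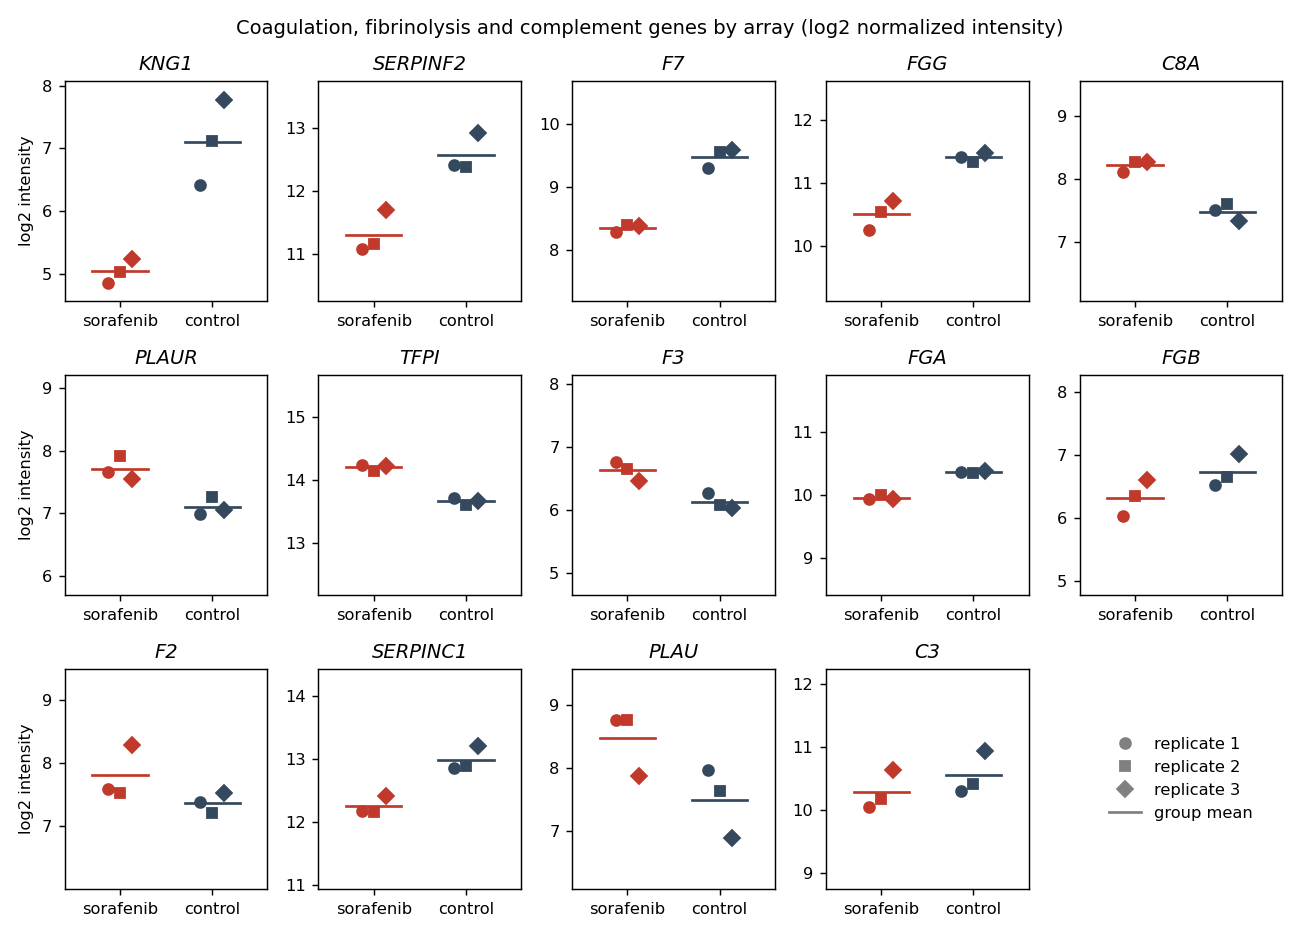
Log2 normalized intensity (vertical axes, each spanning 3.5 units) on the 3 sorafenib and 3 control arrays for the genes with the 4 largest falls, the 4 largest rises and 6 further genes, with group means as lines and symbols for the replicate number. FGG, F7 and SERPINF2 were apart between the groups, while PLAU, FGB and C3 overlapped. FGB and C3 had the same order of replicate numbers in both groups, and PLAU was lowest in replicate 3 of both.

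Of the 8 inhibitor genes, all of which were tested, 3 fell and 1 rose, against 14.3% and 11% of all genes tested. The 3 that fell were serpins, which trap proteases by a reactive loop. SERPINC1 encodes antithrombin, the main inhibitor of thrombin and factor X. It had log2 intensities of 12.16, 12.15 and 12.41 with sorafenib and 12.85, 12.88 and 13.21 in control cells, and fell by 0.74 ± 0.13 (SE, n = 3; limma, adjusted p = 0.00815). SERPIND1, heparin cofactor II, fell by 0.70 ± 0.12 (adjusted p = 0.00857), and SERPINA5, the protein C inhibitor, fell by 0.36 ± 0.07 (adjusted p = 0.0153). TFPI, which blocks tissue factor with factor VII, had 14.25, 14.15 and 14.22 with sorafenib and 13.71, 13.60 and 13.68 in control cells. The groups did not overlap, and TFPI rose by 0.54 ± 0.07 (adjusted p = 0.00367), with its other detected probes at 0.72 and 0.65. The serpins and TFPI, which act on the same chain of proteases, had opposite signs. SERPINA5 missed the threshold with median scaling and without sorafenib replicate 2 (limma, adjusted p = 0.205 and 0.0544).

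The vitamin K dependent anticoagulant proteins C, S and Z and APOH did not pass. PROC, the protein C gene, differed by -0.18 ± 0.15 (SE, n = 3; limma, adjusted p = 0.418, 95% interval -0.55 to 0.18). PROS1, its cofactor protein S, differed by -0.20 ± 0.09 (adjusted p = 0.141), although all sorafenib arrays lay below the control arrays. PROZ, protein Z, had 7.65, 7.66 and 8.23 with sorafenib and 7.97, 8.0 and 8.70 in control cells. Replicate 3 was the highest in both groups, and the difference of -0.38 ± 0.24 did not pass (adjusted p = 0.295), but it passed with the block (limma, adjusted p = 0.0166). APOH, a phospholipid-binding plasma protein, differed by -0.01 ± 0.13 (95% interval -0.32 to 0.31).

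In fibrinolysis, 2 of 6 genes tested fell and 1 rose, against 14.3% and 11% of all genes tested. SERPINF2 encodes antiplasmin, the inhibitor of plasmin. It had log2 intensities of 11.08, 11.15 and 11.69 with sorafenib and 12.41, 12.38 and 12.92 in control cells. The groups did not overlap and replicate 3 was the highest in each, and SERPINF2 fell by 1.26 ± 0.21 (SE, n = 3; limma, adjusted p = 0.0076), to 0.418 of the control level. VTN, vitronectin, an adhesive plasma protein that holds the plasminogen activator inhibitor PAI-1 in its active form, had 10.74, 10.86 and 10.93 with sorafenib and 11.64, 11.72 and 11.82 in control cells. It fell by 0.88 ± 0.09 (adjusted p = 0.00147), and its groups were apart. CPB2, a carboxypeptidase that protects fibrin from lysis, differed by -0.34 ± 0.25 (adjusted p = 0.361).

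The activators of plasminogen and their receptor differed among themselves. PLAUR, the receptor of urokinase, had log2 intensities of 7.67, 7.91 and 7.56 with sorafenib and 7.0, 7.26 and 7.05 in control cells, and rose by 0.61 ± 0.12 (SE, n = 3; limma, adjusted p = 0.0131). Its other detected probes differed by 0.49 and 1.31, the second of them detected on 3 sorafenib and 2 control arrays, and without background correction PLAUR differed by 0.36. PLAU, urokinase itself, had 8.77, 8.77 and 7.87 with sorafenib and 7.97, 7.63 and 6.89 in control cells. Replicate 3 was the lowest in both groups and the groups overlapped, so that the difference of 0.98 ± 0.34 did not pass (adjusted p = 0.0781, 95% interval 0.17 to 1.78). Within the replicate numbers the differences were 0.80, 1.14 and 0.99, and PLAU passed with the number as a block (limma, adjusted p = 0.00348), with median scaling (adjusted p = 0.0256), without background correction (adjusted p = 0.0324), with a normexp offset of 50 (adjusted p = 0.0409), on the authors' processed values (adjusted p = 0.0343) and with sorafenib replicate 3 left out (adjusted p = 0.0339). PLAT, the tissue plasminogen activator gene, differed by -0.45 ± 0.14 (adjusted p = 0.059). It passed with the block (limma, adjusted p = 0.0254) and with either sorafenib replicate 1 or control replicate 2 left out (adjusted p = 0.0498 and 0.0374). With the block, 2 fibrinolysis genes rose and 3 fell, and over all genes tested the block called 14.4% higher and 17.5% lower.

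**Figure D3:**
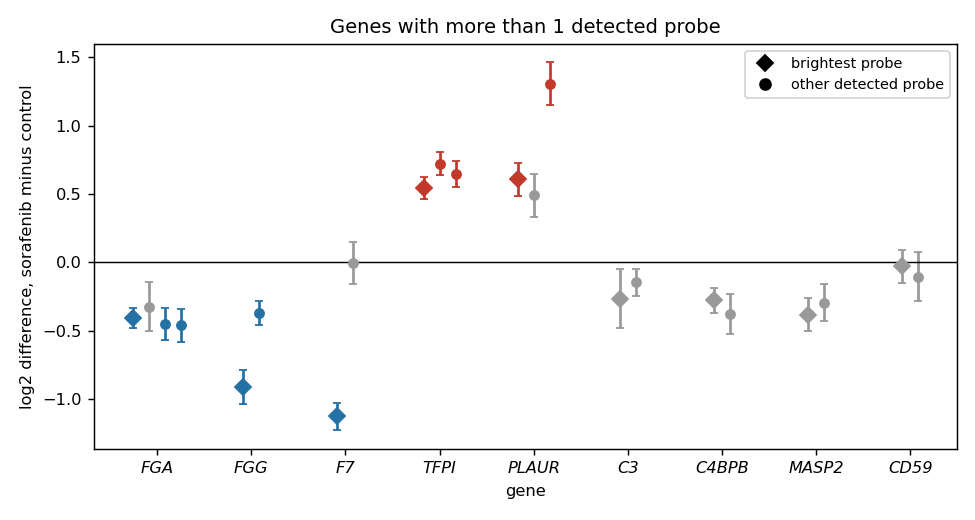
Log2 difference (sorafenib minus control, vertical axis, with SE of the fit over all probes) of every detected probe of the 9 genes with more than 1. Diamonds are the brightest probes, red and blue mark probes called higher and lower over all 20120 detected probes, and grey marks the rest. The probes of TFPI lay together, while those of F7 were -1.13 and -0.01.

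Complement proteases fell in more than one branch. Of 15 complement genes tested, 5 fell and 1 rose, against 14.3% and 11% of all genes tested. When the replicate number was a block 8 fell and 2 rose, the share higher being near the 14.4% of all genes in that fit. C1S, a protease of the classical pathway, had log2 intensities of 9.15, 9.27 and 9.15 with sorafenib and 10.17, 10.01 and 10.09 in control cells. Its groups were narrow and far apart, and it fell by 0.90 ± 0.08 (SE, n = 3; limma, adjusted p = 0.00109). C1R, its partner and neighbour on chromosome 12, did not pass the filter and was not tested. Only 1 of its probes was detected at all, on 2 control arrays. C2, the protease of the classical and lectin convertase, fell by 0.72 ± 0.14 (adjusted p = 0.0127), and CFB, its counterpart in the alternative pathway, fell by 0.49 ± 0.10 (adjusted p = 0.0133). MASP2, a protease of the lectin pathway, differed by -0.38 ± 0.12 (adjusted p = 0.0562), with all sorafenib arrays below the control arrays. MASP2 passed with the block (limma, adjusted p = 0.0463), under the strict filter on detection (adjusted p = 0.0394) and with either sorafenib replicate 3 or control replicate 1 left out (adjusted p = 0.0482 and 0.0446). CFB missed the threshold with median scaling and without sorafenib replicate 2 (limma, adjusted p = 0.0554 and 0.0519).

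The central components C3 and C5 did not pass. C3, on which all branches converge, had log2 intensities of 10.05, 10.17 and 10.64 with sorafenib and 10.31, 10.41 and 10.93 in control cells. The groups overlapped, and the difference of -0.26 ± 0.21 did not pass (SE, n = 3; limma, adjusted p = 0.397, 95% interval -0.77 to 0.24). Within the replicate numbers C3 differed by -0.26, -0.24 and -0.30, and it passed with the block (limma, adjusted p = 0.0327). C5, which starts the lytic complex, differed by -0.18 ± 0.14 (adjusted p = 0.385).

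Of the genes of the lytic membrane attack complex, C8A rose, and C6 passed downward with values near background. C8A, the alpha chain of C8, had log2 intensities of 8.11, 8.28 and 8.28 with sorafenib and 7.51, 7.60 and 7.34 in control cells. It rose by 0.74 ± 0.10 (SE, n = 3; limma, adjusted p = 0.0034), and without background correction it differed by 0.49. C8B, the beta chain gene next to C8A on chromosome 1, differed by -0.11 ± 0.13 (adjusted p = 0.586, 95% interval -0.42 to 0.20). C8G, the gamma chain, differed by 0.45 ± 0.19 (adjusted p = 0.131), and it passed with the block (limma, adjusted p = 0.011) and without control replicate 3 (adjusted p = 0.0415). C6 had 5.89, 5.26 and 5.31 with sorafenib, where 1 array was above background, and 6.27, 6.46 and 6.28 in control cells. It fell by 0.85 ± 0.17 (adjusted p = 0.0153), a difference of -0.33 without background correction, and missed the threshold with replicate 2 of either sorafenib or control left out (limma, adjusted p = 0.0505 and 0.0546).

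Of the regulators of complement tested, CFI alone passed. CFI, the protease that inactivates C3b and C4b, had log2 intensities of 12.11, 12.20 and 11.94 with sorafenib and 12.55, 12.34 and 12.39 in control cells, and fell by 0.34 ± 0.10 (SE, n = 3; limma, adjusted p = 0.0474). That call was lost in all 6 fits that left out an array (limma, adjusted p = 0.0962, 0.0639 and 0.108 without sorafenib replicates 1, 2 and 3, and 0.126, 0.0773 and 0.091 without control replicates 1, 2 and 3), and with median scaling (adjusted p = 0.278), with no filter (adjusted p = 0.0769) and with probes tested one by one (adjusted p = 0.0708). C4BPA and C4BPB, the chains of the C4b-binding protein, lie side by side on chromosome 1 and differed by -0.15 ± 0.17 (adjusted p = 0.552) and -0.28 ± 0.09 (adjusted p = 0.0608). C4BPB passed downward under 7 of the 16 alternatives, among them the block (limma, adjusted p = 0.0374). The membrane regulators CD55, which speeds the decay of the convertases, and CD59, which blocks the lytic complex, differed by 0.27 ± 0.19 (adjusted p = 0.343) and -0.03 ± 0.12 (adjusted p = 0.878).

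**Figure D4:**
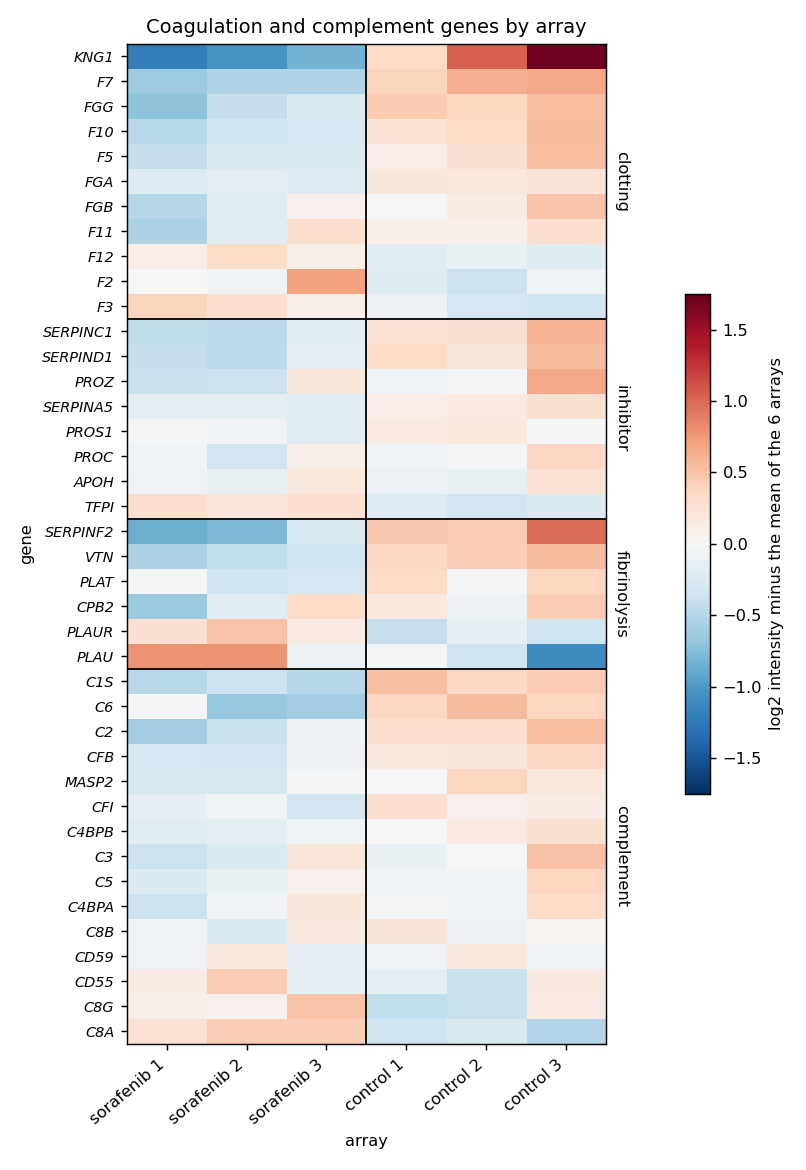
Log2 intensity on each array minus the mean of the 6 arrays (colour scale) for the 40 genes tested, in rows by subgroup and by difference, with the 3 sorafenib arrays left of the 3 control arrays. Most rows in each subgroup had a lower mean on sorafenib arrays, and control replicate 3 was often the highest array.

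Replicate 3 was often the highest array of its group. For 22 of the 40 genes, or 55%, replicate 3 was the highest of its group both with sorafenib and in control cells, against 20.9% of all genes tested. SERPINC1, SERPINF2, F10, C3 and PROZ were among them, and PLAU was lowest there. The corresponding counts were 3 for replicate 1 and 4 for replicate 2. With these numbers as a block in the fit, 22 of the 40 genes fell and 7 rose, against 17.5% and 14.4% of all genes tested, and what the numbers stand for was not given in the labels.

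A wider list of the same systems was fitted alongside. Of 84 further genes listed, 42 were tested, of which 8 fell and 3 rose, or 19% and 7.14%, against 14.3% and 11% of all genes. Their median log2 difference was -0.13. With the block 14 of them fell and 6 rose, against 17.5% and 14.4% of all genes in that fit. ITIH1, a heavy chain of the inter-alpha-trypsin inhibitor, had log2 intensities of 6.08, 5.98 and 6.55 with sorafenib and 7.63, 7.40 and 8.09 in control cells, and fell by 1.5 ± 0.21 (SE, n = 3; limma, adjusted p = 0.00471). CFD, factor D, the protease that cuts factor B, fell by 0.93 ± 0.13 (adjusted p = 0.00406), alongside CFB. SPINT2, a Kunitz protease inhibitor, was above background on the 3 control arrays and on no sorafenib array. The limma fit gave SPINT2 a difference of -1.10 ± 0.25 (adjusted p = 0.0216). It was at least 1.68-fold lower with sorafenib on the background-corrected scale, a bound that was not itself tested. That fold does not hold without the correction, and like that of KNG1 its fall follows in part from the filter. SERPINA3, antichymotrypsin, rose by 0.60 ± 0.12 (adjusted p = 0.0122), while LMAN1, a cargo receptor for factors V and VIII, rose by 0.40 ± 0.12 (adjusted p = 0.0473) and C1QBP by 0.27 ± 0.08 (adjusted p = 0.0425). The calls of LMAN1 and C1QBP were lost with median scaling (limma, adjusted p = 0.11 and 0.216). C1QBP also missed the threshold with the block (adjusted p = 0.0553) and in all 6 fits that left out an array (adjusted p of 0.0506 to 0.134), and LMAN1 in 5 of these 6, where it passed only without sorafenib replicate 1 (adjusted p = 0.0392, and 0.0593 to 0.133 in the others). SPINT2 missed it when sorafenib replicate 1 or 3 was left out (limma, adjusted p = 0.0615 and 0.0552), and likewise control replicate 1 or 2 (0.0663 and 0.0707). Without background correction ITIH1 differed by -0.77 and SPINT2 by -0.44.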

How the data were processed

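RNA of HepG2 cells was labelled as biotinylated cRNA for Illumina BeadChips, per the labels' protocols. The authors deposited the intensity of 47323 probes on every array without normalization, and, per the file headers, a detection p-value beside each. The deposited processed values are log2 intensities that equal quantile normalized log2 of the deposited intensities within 5.00e-07. No scanner software is given in the sources used here.

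Groups and replicate numbers came from the sample titles. Background was corrected with limma's neqc (negative controls inferred from detection p, offset 16), followed by quantile normalization and log2. Probes were named from the platform annotation, in which 30113 probes had 1 symbol, 8 had several and 17202 had none. A gene is its detected probe with the highest mean, and the other detected probes were also fitted one by one over 20120 probes. The 2 groups were compared with lmFit and eBayes of limma, two-sided, with Benjamini-Hochberg adjustment over 11542 genes and a threshold of 0.05. Differences are sorafenib minus control, and errors are moderated SEs. The number of arrays limits the precision.

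The genes and lists were chosen with earlier results of these data known. All 48 were accounted for, and the 4 largest rises, the 4 largest falls and FGA, FGB, FGG, F2, F3, SERPINC1, PLAU and C3 were given on every array, with others added for their role after their values were seen. Of the other pathway genes, the 3 largest called changes each way were named. Deviations from the group means correlated at 0.304, 0.296 and 0.416 between arrays of equal number, above the limit of 0.1. On that basis, which comes from the data and not from the labels, the arrays were treated as paired in the blocked fit. The unpaired fit was the planned one. Alternatives were other background corrections and scalings, the authors' processed values, other filters, other probe summaries, eBayes with trend and robust, the block and leaving out each array. R 4.3.3, limma 3.58.1, Python 3.11.15 and matplotlib 3.10.9 were used. Promoters came from RefSeq, GRCh38.p14.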

Additional observations from a re-analysis of the deposited data

How the results depend on the processing

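Of the 21 genes called, 14 were called under all 16 alternatives that gave a value, namely FGG, F5, F7, F10, KNG1, SERPINC1, SERPIND1, TFPI, SERPINF2, PLAUR, VTN, C1S, C2 and C8A. KNG1 and C6 left the strict filter, with F3, PLAT and C8B, and gave no value there. Of the 19 not called, 10 passed under none. Leaving out 1 array gave 3 to 6 genes higher and 12 to 17 lower, with 0 to 2 clotting genes higher, 1 to 2 fibrinolysis genes higher, 1 to 2 complement genes higher and 2 to 6 complement genes lower, and over all genes 621 to 980 higher and 992 to 1408 lower. Without sorafenib replicate 1 or 2 or control replicate 2, 3 genes rose, and without sorafenib replicate 2 or control replicate 2, 2 and 3 complement genes fell. With median scaling 0 clotting genes rose, 2 fibrinolysis genes rose and 3 complement genes fell, and 641 and 893 of all genes were higher and lower. With the strict filter 1 clotting gene rose. Without background correction, with an offset of 50 and on the authors' values 2 fibrinolysis genes rose. In the fit with the replicate block 2 fibrinolysis and 2 complement genes rose and 8 complement genes fell, and FGB, PROZ, PLAT, PLAU, C3, C4BPB, C8G and MASP2 passed in addition. The block changed no other call among the 40 genes. The difference of APOH reversed to 0.026 with median scaling and ranged from -0.098 to 0.117 with 1 array left out, and that of CD59 ranged from -0.123 to 0.055 so. Neither passed the test in any fit. The cause of these shifts was not tested. Dim probes limit the values of KNG1, C6, F3, FGB, PLAT and C8B, which lie near background.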
